A study of Rattus norvegicus with 6 samples.

Results

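Lcn2 (ENSRNOG00000013973) and C3 (ENSRNOG00000046834), a pair of acute-phase genes, were examined in rat tenocytes, the resident cells of tendon. Both identifiers were present in the deposited table, so they are 2 of its 19133 genes, and the symbols are those that came with the identifiers when the genes were chosen. The genes were selected on their rise from control to IL−1β in these same libraries. Their difference between the groups is therefore given as a description, and any call or interval printed for it supports nothing further. The control group (n = 3 libraries) was kept in complete medium, and the IL−1β group (n = 3 libraries) received complete medium with the proinflammatory cytokine IL−1β at 50 ng/mL for 24 h. The cells of both groups were primary cultures isolated with collagenase from Achilles tendons of Sprague–Dawley rats, and the age and sex of the donors, and whether the libraries came from separate animals, are not given in the sources used here. The study's methods describe its data in general as coming from independent experiments, and the sample labels do not add to this. Expression was measured by RNA sequencing of polyadenylated RNA and is given in FPKM. This unit corrects the fragments counted on a gene for its length in kilobases and for the depth of the library. The reference table used here pairs 0 of the identifiers with symbols, so the labelled cell type was not checked against tenocyte markers or against markers of other cells.

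Acute-phase proteins are secreted proteins whose production climbs during inflammation. The liver is their main source in the body, and many other cell types make some of them locally when cytokines such as IL−1β or IL−6 reach them. IL−1β binds its receptor on the cell surface and activates NF-κB. In many cells the transcriptional regulators IκBζ and C/EBP then act with NF-κB on acute-phase genes. Lcn2 encodes lipocalin 2, also called neutrophil gelatinase-associated lipocalin, a small secreted protein that binds bacterial siderophores and so withholds iron from bacteria. C3 encodes complement component 3, the large plasma protein on which the activation pathways of complement converge, which is cleaved into C3a, a mediator of inflammation, and C3b, which coats surfaces.

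The promoters of both genes are shown because the genes were higher together under a cytokine that activates NF-κB, and the letters of 5 motifs were searched in them. Both symbols matched 1 entry each among the 33469 promoter windows from RefSeq (GRCr8 build), which run from 250 bases before the annotated start to 50 bases after it. Below are the 250 bases upstream of each start, written 5′ to 3′ along the gene, with matched motif letters in capitals. Lcn2 lies on the minus strand and its upstream bases are chr3:36081781-36082030. C3 lies on the minus strand as well, and its upstream bases are chr9:2201340-2201589.
Lcn2: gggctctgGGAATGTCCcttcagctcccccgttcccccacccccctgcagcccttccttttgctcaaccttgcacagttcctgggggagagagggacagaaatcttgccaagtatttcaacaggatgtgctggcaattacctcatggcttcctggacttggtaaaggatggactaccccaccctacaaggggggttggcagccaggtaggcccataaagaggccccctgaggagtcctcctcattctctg
C3: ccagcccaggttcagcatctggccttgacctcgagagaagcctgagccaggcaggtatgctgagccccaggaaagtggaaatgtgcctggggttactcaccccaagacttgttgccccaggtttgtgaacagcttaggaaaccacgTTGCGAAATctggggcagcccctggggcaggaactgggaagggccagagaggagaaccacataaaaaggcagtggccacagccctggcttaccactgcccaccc

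The capitals in the Lcn2 promoter mark the NF-κB letters GGANNNTCC (a motif that reads the same on the other strand), here GGAATGTCC, at 242 to 234 bases before the start. These letters occurred once in the Lcn2 window, nowhere in the C3 window and in 8.25% of all windows. The capitals in the C3 promoter mark the C/EBP letters TTNNGNAAT, here TTGCGAAAT, at 104 to 96 bases before the start. C/EBP letters occurred nowhere in the Lcn2 window and in 12.3% of all windows. The AP-1 letters TGANTCA, the STAT letters TTCNNNGAA and the TATA letters TATAAA were in neither window, against 7.33%, 8.87% and 14.2% of all windows. Both strands were searched, and the NF-κB and C/EBP matches do not overlap any other. Each promoter thus held the letters of 1 motif, and a different one. A match is a string of letters and does not show a bound site, and a missing match says only that these letters are not in this window. The GC content of the 250 upstream bases was 57.2% for Lcn2 and 58.8% for C3, against a median of 51.2% over all windows. In the same RefSeq table, Lcn2 lies between Bbln and Ptges2 and C3 between LOC134480441, a pseudogene, and Gpr108. Neither gene overlaps another annotated gene, on either strand.

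**Figure D1:**
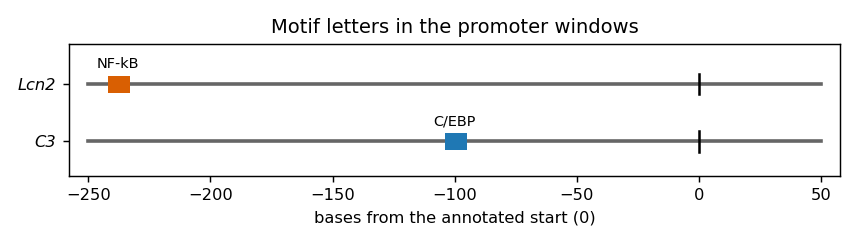
Position of motif letters in the RefSeq promoter windows of Lcn2 and C3, in bases from the annotated start at 0 (black tick). The NF-κB letters of Lcn2 begin 242 bases before the start and the C/EBP letters of C3 begin 104 bases before it.

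The depth behind the values was recovered from the table itself, whose values step in whole multiples of what 1 read is worth. The 6 libraries held between 36506669 and 43098779 recovered reads, and the depths of the groups overlapped. The same steps gave a counted length of 889 bases for Lcn2 and 5188 bases for C3, so 1 read weighs 5.84 times as much in the FPKM of Lcn2 as in that of C3. Detection was given a floor of 3 reads, which for Lcn2 lay between 0.0781 and 0.0922 FPKM across the libraries and for C3 between 0.0134 and 0.0158 FPKM. Intervals given with reads are exact 95% Poisson intervals and cover counting error only. Intervals of read ratios are exact 95% binomial intervals on the pooled reads of each group, and they too leave out the spread between libraries.

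Lcn2 was close to undetected in control tenocytes and ranked among the most abundant genes in every IL−1β library. In the control group, its level was 0 FPKM in library 1, 0.307 FPKM in library 2 and 0.269 FPKM in library 3. These values stand for 0, 10 and 10 reads, and in library 1 the floor of 3 reads corresponds to 0.0873 FPKM. The interval of control library 1 (0 to 3.69 reads) did not overlap those of libraries 2 and 3 (4.8 to 18.4 reads in each). In the control group, then, 1 library gave no signal and the others gave a low signal above the floor.

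In the IL−1β group, the level of Lcn2 was 232.7 FPKM in library 1, 132.1 FPKM in library 2 and 176.2 FPKM in library 3, from 7691, 5078 and 5770 reads. Every IL−1β library lay far above every control library, and the lowest IL−1β value was 430 times the highest control value. The mean level was 180.4 ± 50.4 FPKM with IL−1β against 0.192 ± 0.167 FPKM without it (SD, n = 3 per group), a ratio of 939. From reads alone, the ratio of the 18539 IL−1β reads to the 20 control reads, relative to depth, was 926. Its exact interval ran from 599 to 1520, a width that reflects the small control count and not the spread between libraries. As these are bulk cultures, more cells that express the gene and more RNA per cell cannot be told apart.

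C3 was low in control tenocytes too, but it was detected in all of them. In the control group, its level was 0.184 FPKM in library 1, 0.30 FPKM in library 2 and 0.295 FPKM in library 3. These levels rest on 37, 57 and 64 reads, all above the floor, since C3 is the longer gene and gathers more reads at the same FPKM. Control library 1 had the lowest level of C3, as it had of Lcn2, but the interval of its 37 reads (26.1 to 51) overlapped those of the other control libraries (43.2 to 73.9 and 49.3 to 81.7).

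In the IL−1β group, the level of C3 was 35.9 FPKM in library 1, 26.6 FPKM in library 2 and 32.5 FPKM in library 3, from 6929, 5965 and 6203 reads. Again the groups did not overlap, and the lowest IL−1β value was 88.7 times the highest control value. The mean level was 31.66 ± 4.72 FPKM with IL−1β against 0.26 ± 0.0653 FPKM without it (SD, n = 3 per group), a ratio of 122. From the 19097 IL−1β reads and the 158 control reads, the ratio relative to depth was 121, with an exact interval from 103 to 142.

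**Figure D2:**
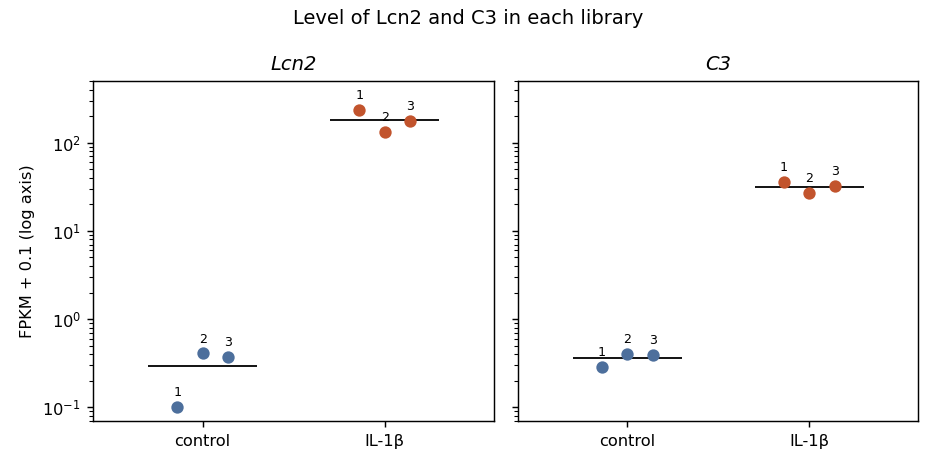
Level of Lcn2 and C3 in each library, as FPKM + 0.1 on a log axis; points are libraries with their replicate number and lines are group means. No IL−1β library overlaps a control library for either gene, and control library 1 of Lcn2 is at 0 FPKM.

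The position of both genes among all others changed accordingly. By mean FPKM, Lcn2 ranked 13413 of 19133 genes without IL−1β and 392 with it. Its rank in the single IL−1β libraries was 302, 549 and 410. C3 ranked 13025 without IL−1β and 2347 with it, and 2055, 2732 and 2314 in the single IL−1β libraries. In control tenocytes both genes were thus expressed at less than most genes, whereas with IL−1β Lcn2 exceeded at least 97.1% and C3 at least 85.7% of the genes in the table. Per 1000000 recovered reads, Lcn2 had 0.171 ± 0.149 reads without and 161 ± 45 reads with IL−1β, and C3 had 1.35 ± 0.34 and 165 ± 24.6 reads (SD, n = 3 per group).

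To place the changes among all genes, FPKM values were scaled between libraries by size factors, 0.1 was added, log2 was taken, and the groups were compared with limma over the 12408 genes that reached 0.5 FPKM in 3 or more libraries. A gene counted as upregulated with an adjusted p under 0.05 and a log2 fold change over 1, which held for 666 genes (5.37% of those tested). Such a call rests on the spread between these 3 libraries per group. Both Lcn2 and C3 were among them, which their selection fixed and from which nothing is read. For 25.5% of the tested genes no IL−1β library was as low as any control library, and both genes were among these as well. Both genes were under 0.5 FPKM in all control libraries and so entered the comparison only through the IL−1β group.

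On this scale, the log2 fold change was 9.43 for Lcn2 and 6.42 for C3, against a median of 1.67 among the upregulated genes and of 0.001 among all tested genes. Lcn2 had the largest log2 fold change of the 12408 genes in this fit, and C3 ranked 24. Only 30 tested genes had a log2 fold change over 6, both of these included. The rank of Lcn2 depended on the settings. It was 8 with a pseudocount of 1 FPKM and 2 when limma-voom was run on reads, a fit that changes several choices at once. C3 ranked 28 and 38 under these settings. The log2 fold change of Lcn2 was 7.19 with a pseudocount of 1 FPKM and 10.79 with one of 0.01 FPKM, and that of C3 was 4.65 and 6.84.

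**Figure D3:**
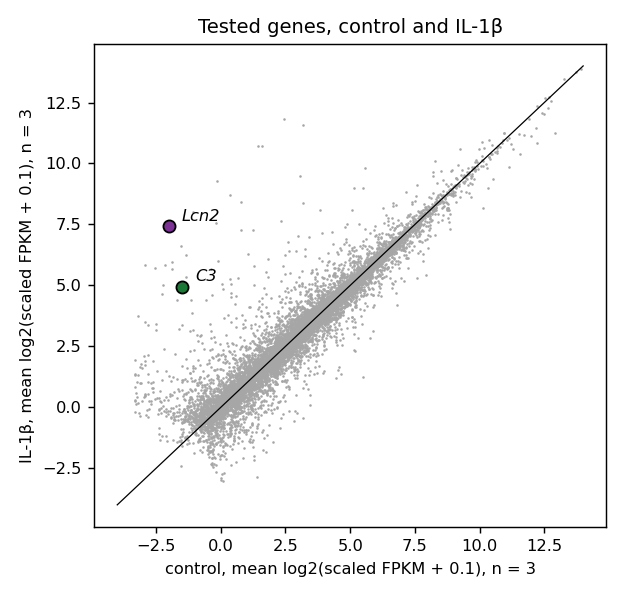
Mean log2(scaled FPKM + 0.1) of the 12408 tested genes in the control group (horizontal) and the IL−1β group (vertical), n = 3 each, with the line of equal values. Lcn2 and C3 are marked and lie at the left, with control means of −2.01 and −1.48, and far above the line, with IL−1β means of 7.42 and 4.94.

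Few of the genes under 0.5 FPKM in all control libraries reached the level of Lcn2 or C3 with IL−1β. Of the 6533 genes under 0.5 FPKM in all control libraries, 215 were at 0.5 FPKM or more in all IL−1β libraries, and 172 of these were called upregulated. Of the 215, 11 reached the lowest IL−1β value of C3 in all IL−1β libraries, C3 and Lcn2 included. Just 2 reached the lowest IL−1β value of Lcn2, of which 1 was Lcn2 itself.

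The level of Lcn2 with IL−1β was above that of C3 per unit length in all 3 libraries, and in reads in library 1 alone. Within the IL−1β libraries 1, 2 and 3, the FPKM of Lcn2 was 6.48, 4.97 and 5.43 times that of C3 (5.63 ± 0.774, SD, n = 3). The reads on Lcn2 were 1.11, 0.851 and 0.930 times those on C3 in the same libraries, so the ratio in reads was nearer to 1 than that in FPKM, which divides by length. In the control libraries 2 and 3, the FPKM of Lcn2 was 1.02 and 0.912 times that of C3, each from 10 reads of Lcn2. The counting intervals of Lcn2 there were wide (0.147 to 0.565 and 0.129 to 0.494 FPKM) and held the level of C3. In control library 1 no read of Lcn2 was found, and its upper bound (0.107 FPKM) lay under the lower bound of C3 (0.13 FPKM). The log2 fold change of Lcn2 exceeded that of C3 by 3.01, and by 2.52 without control library 1. Since both genes were chosen from this contrast, the difference was not tested.

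**Figure D4:**
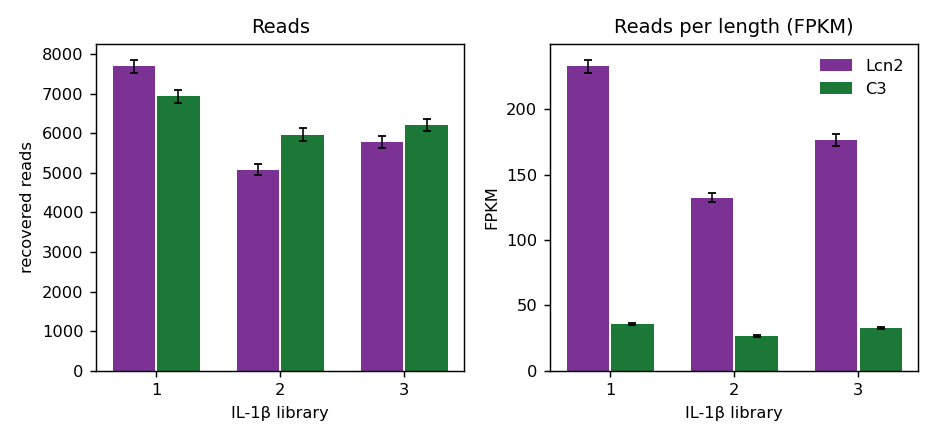
Recovered reads (left) and FPKM (right) of Lcn2 and C3 in the 3 IL−1β libraries, with exact 95% Poisson intervals. The reads of the genes are close in each library (7691 and 6929 in library 1), whereas the FPKM of Lcn2 is 4.97 to 6.48 times that of C3.

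The share of Lcn2 and C3 in the reads of the upregulated genes was computed in each library. The 666 genes together held 1.93% to 1.96% of the recovered reads in the control libraries and 7.66% to 8.65% in the IL−1β libraries. They were called as higher with IL−1β in these same libraries, which fixed the direction of this rise. Lcn2 made up 0.240%, 0.154% and 0.196% of the reads of the 666 genes in IL−1β libraries 1, 2 and 3. C3 made up 0.216%, 0.181% and 0.211%.

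The level with IL−1β differed between libraries in the same direction for both genes. Relative to the group mean, Lcn2 was at 129%, 73.3% and 97.7% in IL−1β libraries 1, 2 and 3, and C3 was at 113%, 84.0% and 103%. Both genes were highest in library 1 and lowest in library 2, and the highest library was 1.76 times the lowest for Lcn2 and 1.35 times for C3. The coefficient of variation over the 3 libraries was 28.0% for Lcn2 and 14.9% for C3 (counting error alone gives 1.27% and 1.25%). Library 1 was the highest and library 2 the lowest for 44.3% of the upregulated genes and for 17.4% of all tested genes, so this order was not particular to Lcn2 and C3. Its cause was not tested.

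On the log2 scale, the SD among the IL−1β libraries was 0.42 for Lcn2 and 0.23 for C3, against a median of 0.17 among the upregulated genes and of 0.10 among all tested genes. Among the control libraries it was 1.14 for Lcn2 and 0.27 for C3, against a median of 0.085 among all tested genes. Both genes had few reads there. The coefficient of variation of their control FPKM was 87.2% and 25.1%, where counting error alone gives 38.7% and 13.8%. The spread of Lcn2 in the control group exceeded that of 98.7% of the tested genes and comes with the library that had 0 reads.

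**Figure D5:**
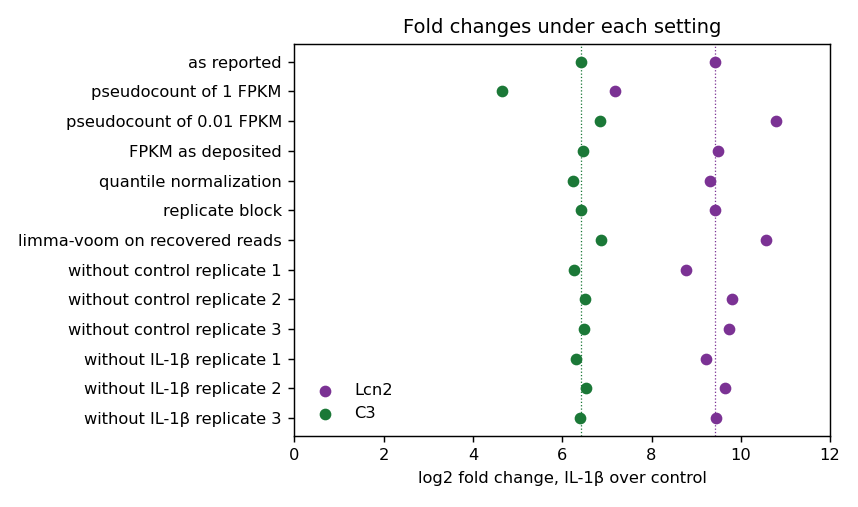
Log2 fold change of Lcn2 and C3 (IL−1β over control) as reported and under each alternative setting computed for it, with dotted lines at the reported values of 9.43 and 6.42. Lcn2 ranges from 7.19 to 10.79 and C3 from 4.65 to 6.87, with the lowest value of each at a pseudocount of 1 FPKM.

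The profile of the genes over the 6 libraries was compared with that of every other tested gene by Pearson's r of the log2 values, as a description, since the points share libraries and fall into 2 groups. Lcn2 and C3 had an r of 0.996 with each other. By this measure C3 was the gene ranked 30 among those most like Lcn2, and Lcn2 ranked 168 among those most like C3. The gene most like Lcn2 was ENSRNOG00000024120 (r = 0.9989), at 0.122, 0.192 and 0.189 FPKM in the control libraries and 1.53, 1.24 and 1.32 FPKM in the IL−1β libraries. The gene most like C3 was ENSRNOG00000015880 (r = 0.9999), at 3.26, 3.61 and 3.65 FPKM in the control libraries and 13.8, 12.8 and 14 FPKM in the IL−1β libraries. Both of these were lowest in control library 1, as were Lcn2 and C3, and their changes were much smaller. An r over 0.99 was shared with 182 genes by Lcn2 and with 426 genes by C3, so the likeness singles out no gene. With a pseudocount of 1 FPKM other genes came first for both, and Lcn2 and C3 then ranked 2 for each other.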

How the data were processed

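The authors extracted total RNA from tenocytes, captured polyadenylated RNA, sequenced paired-end libraries and deposited, for each library, the FPKM of 19133 genes under rat Ensembl identifiers. The submitters' processing notes name HISAT2 and featureCounts. Versions, genome build, annotation and strand setting are not given in the sources used here. The study's own test was made by the authors with DESeq2, which takes counts and was not repeated on FPKM. Both genes, and the gene lists and settings, were chosen with earlier results of these data known. The planned gene lists and marker checks need symbols for other genes and were not run.

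Reads were recovered with Python 3.11.15 from the steps of values under 0.15 FPKM and from whole gene lengths. A length that gave whole reads within 0.02 read was found for 100.0% of genes, and the shortest was kept. The median length moved from 1883 to 1881 bases with a tolerance of 0.04 read, so not every gene's reads are certain. The recovered reads made up 99.69% to 99.70% of the depth by which FPKM had been divided. Molecular identifiers were not used. Median-of-ratios size factors (0.972 to 1.036) scaled the FPKM, and log2(FPKM + 0.1) was fitted in R 4.3.3 with limma 3.58.1 (intensity trend, Benjamini-Hochberg) without a block. The fold changes on this scale understate the change of low genes. The recovery and the fit were tested on simulated data. Genes most like Lcn2 and C3 were named by the highest Pearson's r, 1 for each since symbols were lacking. Alternatives were other pseudocounts, filters and scalings, limma without a trend, limma-voom on recovered reads, the replicate number as a block, each library left out, a wider tolerance and a shorter promoter window.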

Additional observations from a re-analysis of the deposited data

How the results depend on the processing

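Lcn2 and C3 were higher with IL−1β under all 15 alternative fits, which refit the libraries they were chosen from and so give no independent support. The pseudocount moved their fold changes most. With a pseudocount of 1 FPKM, the log2 fold change was 7.19 for Lcn2 and 4.65 for C3 and 231 genes were called lower in place of 412. With a pseudocount of 0.01 FPKM it was 10.79 for Lcn2 and 6.84 for C3, with a difference of 3.95 between them in place of 3.01. When limma-voom was run on reads it was 10.57 and 6.87, with a difference of 3.69. The smallest difference was 2.52, without control replicate 1, the library with 0 reads of Lcn2. Leaving out each library in turn gave 8.78 to 9.80 for Lcn2 and 6.26 to 6.54 for C3. The number of upregulated genes lay between 466 and 821 in place of 666. The median over the tested genes moved from 0.001 to 0.058 with the FPKM as deposited and to −0.051 with quantile normalization, small beside the changes of both genes. With the replicate block, 668 genes were called higher and both fold changes were the same, as the design is balanced, and 1062 genes were called by both fits (1078 without the block, 1080 with it). The deviations of same-numbered libraries correlated at 0.094, 0.021 and 0.034 across genes. Control library 2 correlated more with IL−1β library 3 (0.061) than with its own number. The other differently numbered libraries correlated at −0.087 to 0. These small values do not exclude a pairing, and the main fit took no pairs. The reads of both genes were the same with a tolerance of 0.04 read. The alternatives for gene lists were not run, since symbols were lacking. Depth limits the control level of Lcn2, which rests on 20 reads in 3 libraries.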
